A study of Mus musculus with 24 samples.

Results

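The 32 genes described here are markers of macrophages and monocytes, listed by name and read from the tables of all libraries, which hold 21878 genes. RNA had been sequenced from 21 thymic lymphomas (T-cell tumours of the thymus) and 3 normal thymus samples of female B6C3F1 mice. The lymphomas had been induced by carbon ions, given to the whole body as 4 doses of 1.6 Gy, 1 dose a week, from an age of 4–5 weeks. The same treatment label also stands on the normal thymus samples, whose titles carry the unexplained mark 7W, so whether those mice were irradiated is not settled by the labels. By the headers of a pair of filtered tables that the authors deposited, 11 lymphomas form a set with Ikzf1 mutation (lymphomas 2, 4, 7, 9, 10, 12, 13, 14, 15, 16 and 17) and 10 a set without it (18, 19, 20, 21, 22, 30, 31, 32, 34 and 35). Ikzf1 encodes Ikaros, a transcription factor of lymphocytes, and the labels themselves give neither the mutations nor the assay that called them. The RNA was that of cell suspensions of the tumours or of normal thymocytes, with no sort for macrophages named in the labels, and all libraries carry 1 batch date. The labels do not say that each lymphoma came from a separate mouse, so the p-values measure only the spread between these samples.

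Macrophages are tissue phagocytes that depend on the growth factor receptor Csf1r and on the transcription factor PU.1, and in the thymus they engulf the many thymocytes that die during selection. Resident macrophages carry receptors for dying cells, such as Timd4 and Mertk, make the complement component C1q, and recycle heme iron. Monocytes are their circulating relatives, which bring Ly6c2, Ccr2 and inflammatory cytokines into a tissue, and lipid-laden macrophages of tumours and damaged tissue are known for Gpnmb, Trem2, Apoe and Spp1.

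Results below turn on 4 of the genes, and the 250 bases before their RefSeq start (build GRCm38.p6, written 5′ to 3′ on the gene's own strand) are shown for that reason. C1qb and C1qc were the pair of members that varied most alike among the lymphomas, Gpnmb had the largest fitted rise over thymus, and Timd4 was the member that fell. Capitals mark a match to the core letters recognised by PU.1, GAGGAA or its reverse complement TTCCTC.
C1qb, chr4:136886201-136886450, minus strand: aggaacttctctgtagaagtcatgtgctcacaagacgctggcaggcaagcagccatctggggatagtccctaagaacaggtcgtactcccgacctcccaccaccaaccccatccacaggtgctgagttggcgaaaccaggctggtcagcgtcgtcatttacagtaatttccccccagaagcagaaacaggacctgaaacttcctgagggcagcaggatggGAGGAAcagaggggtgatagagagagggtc
C1qc, chr4:136892915-136893164, minus strand: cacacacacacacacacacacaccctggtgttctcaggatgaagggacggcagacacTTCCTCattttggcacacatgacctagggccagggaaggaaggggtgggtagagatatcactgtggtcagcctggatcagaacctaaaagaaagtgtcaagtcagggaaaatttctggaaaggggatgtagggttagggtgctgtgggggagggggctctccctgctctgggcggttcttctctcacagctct
Gpnmb, chr6:49036268-49036517, plus strand: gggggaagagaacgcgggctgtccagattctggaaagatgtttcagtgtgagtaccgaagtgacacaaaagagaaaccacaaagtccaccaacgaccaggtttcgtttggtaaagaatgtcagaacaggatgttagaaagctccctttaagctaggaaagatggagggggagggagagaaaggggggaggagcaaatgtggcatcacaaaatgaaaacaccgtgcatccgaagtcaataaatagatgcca
Timd4, chr11:46810549-46810798, plus strand: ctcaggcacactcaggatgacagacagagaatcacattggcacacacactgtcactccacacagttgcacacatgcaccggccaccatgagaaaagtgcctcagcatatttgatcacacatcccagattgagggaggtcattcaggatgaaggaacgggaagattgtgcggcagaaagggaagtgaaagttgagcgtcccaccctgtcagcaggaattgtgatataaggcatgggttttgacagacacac
The match lies 30 bases before the start in C1qb and 193 bases before it in C1qc, and these letters are not in the windows of Gpnmb and Timd4. RefSeq promoters were matched for 23 of the 32 members, as 27 promoters. The PU.1 core letters, searched on both strands, were in 16 of those 27 windows (59.3%, from 14 genes) and in 23.3% of all 32851 promoter windows of the same length. The E-box CACGTG was in 0 of the 27 (6.02% of all windows), and the AP-1 letters TGACTCA or TGAGTCA were in 1 of the 27, that of Cd68 (4.46% of all windows). Neither the E-box nor the AP-1 letters lie in the 4 windows shown, so no motif overlaps another there. A match describes the letters and not binding.

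Libraries held 14998988 to 36559710 counts in the lymphomas and 24543936 to 27544876 counts in thymus, and no pair of libraries agreed within sampling noise. Levels are given as CPM, a count scaled to the library total and by TMM factors. The labelled tissue carried its own markers: all 12 thymocyte markers were measured, with a summed level of 4310 to 8850 CPM in the lymphomas and 10900 to 11600 CPM in thymus. The 32 macrophage and monocyte genes together summed to 423 CPM in lymphoma 14, the lowest, a median of 673 CPM, and 1770 CPM in lymphoma 19, the highest, and to 209 to 298 CPM in the thymus samples. Every lymphoma thus held more of this summed signal than any thymus sample. A few genes weigh heavily in the sum: Apoe and Lyz2 averaged 239 and 143 CPM over the lymphomas, and Itgam gave 269 of the 731 CPM in lymphoma 12. In bulk RNA, a different number of cells of a type and a different amount of RNA per cell cannot be told apart.

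Of the 32 genes, 30 passed the filter on low counts. In the lymphomas, 18 of them rose over thymus, 1 fell and 11 did not pass the test (edgeR quasi-likelihood test, Benjamini-Hochberg adjusted p under 0.05 over 13121 genes). Over all genes tested, 30.8% were called, 15.4% in each direction, and on the log2(TPM + 1) scale the calls split into 1434 higher and 2590 lower genes where the counts gave 2022 and 2022. The median log2 fold change was 1.75 over the 30 genes and 0.07 over all genes. The members were chosen with earlier results of these data known, so these contrasts with all genes describe the list and are not independent support. DESeq2 called 21 members higher and 1 lower, and limma-voom 17 and 1. On CPM, every lymphoma lay above every thymus library in 15 of the 32 genes, and below in 1, Timd4 (6.33 and 7.93% of all genes tested). The 15 include Vsig4, which did not pass the filter. On TPM, C1qb was also above thymus in all 21 lymphomas, while Csf1r, Lyz2 and Apoe were above in 20. With thymus sample 1, 2 or 3 left out, the members called were 17, 18 and 17, while the calls over all genes dropped from 4044 to 2278, 1929 and 2545.

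**Figure D1:**
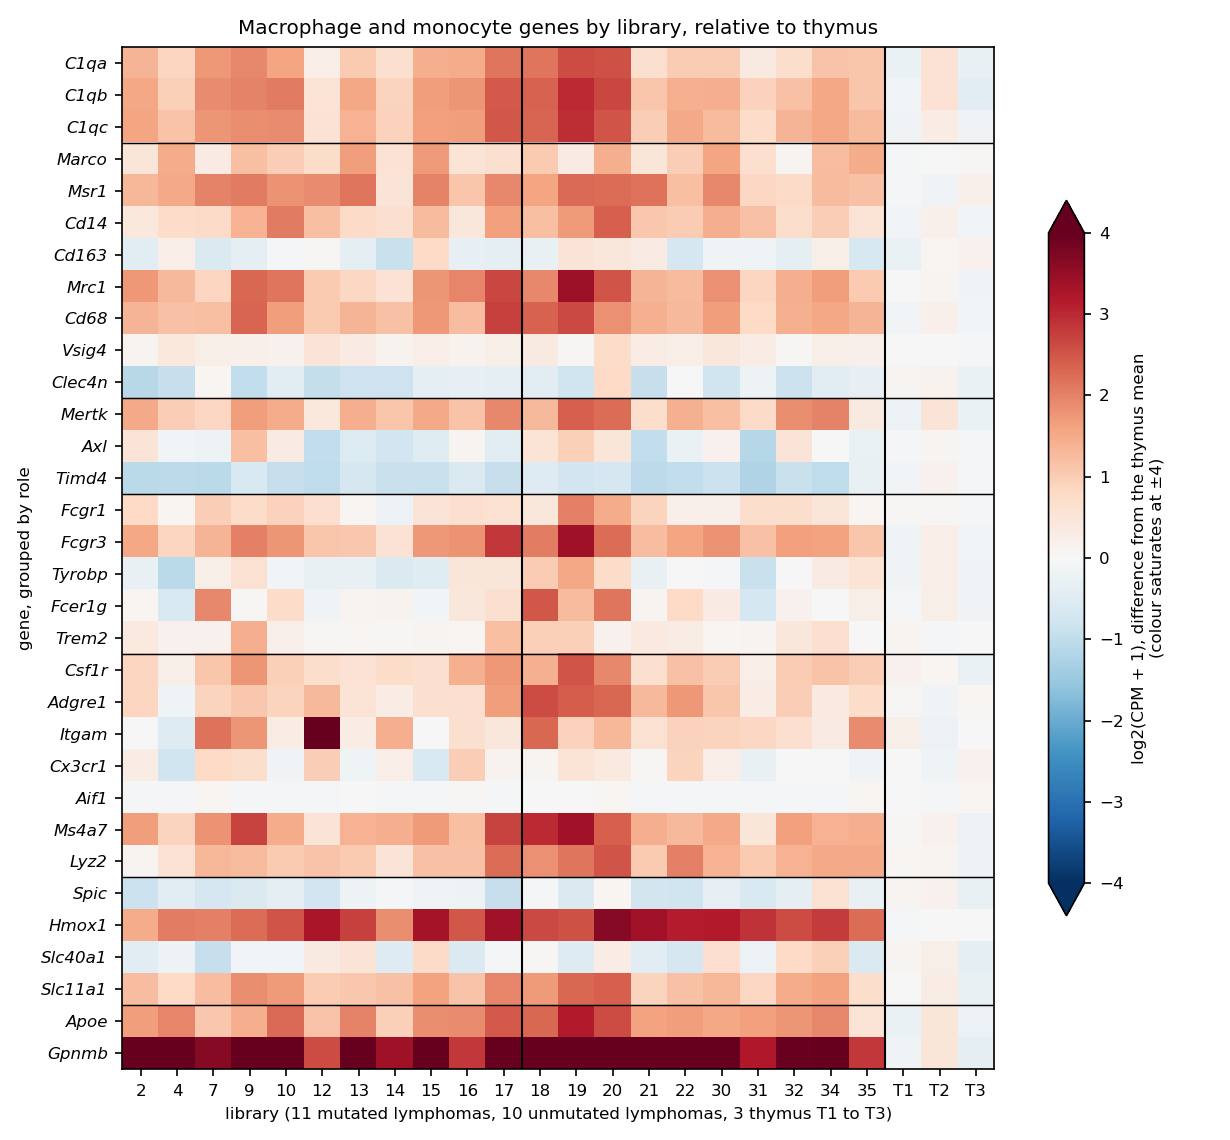
Level of each member (rows, grouped by role) in each library (columns, grouped by set), as the difference in log2(CPM + 1) from the thymus mean; the colour saturates at a difference of 4 in either direction. Gpnmb and Hmox1 are raised in all 21 lymphomas, and lymphomas 19 and 20 hold the most members among their 3 highest libraries (20 of 30 each).

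The 3 C1q chains, which assemble into the recognition unit of the classical complement pathway and are made largely by macrophages, all rose. C1qb ranged from 18.3 CPM in lymphoma 12 through a median of 37.4 to 105 CPM in lymphoma 19, against 11.2, 18.6 and 8.73 CPM in thymus samples 1, 2 and 3. Lymphoma 12 lay just under thymus sample 2 and the other lymphomas lay above it, and the log2 fold change was 1.78 (SE 0.46, edgeR adjusted p = 0.00521). C1qa ran from 14.8 through 28.1 to 79.4 CPM with the same lowest and highest lymphomas, against 9.86, 18.4 and 9.61 CPM in thymus (log2 fold change 1.49, SE 0.47, edgeR adjusted p = 0.0185). For C1qc the levels were 13.6, 27.7 and 74 CPM against a thymus range of 7.78 to 10.9 CPM, with no overlap (1.81, SE 0.43, edgeR adjusted p = 0.00291). The call of C1qa was lost without thymus sample 1 (adjusted p = 0.0975) or 3 (0.0923). The chains kept a narrow proportion to each other: the TPM ratio (a scale per transcript length) of C1qa to C1qb was 0.646 to 0.968 over the lymphomas and 0.868 to 1.08 in thymus, and that of C1qc to C1qb was 0.602 to 0.805 and 0.556 to 0.844. The 3 genes lie side by side on the minus strand of chromosome 4, within chr4:136880129-136886187 (C1qb), chr4:136889804-136893065 (C1qc) and chr4:136895917-136898803 (C1qa) of GRCm38.

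Among the scavenger and pattern receptors, 5 of the 7 tested genes rose and none fell, where 15.4% of all genes tested went each way. Msr1, the class A scavenger receptor for modified lipoproteins, spanned 1.16 to 6.24 CPM (median 4.27) in the lymphomas and 0.395 to 0.767 CPM in thymus, with no overlap, and rose by a log2 fold change of 2.86 (edgeR adjusted p = 0.000325). Cd14, the lipopolysaccharide co-receptor, was at 0.77 to 5.81 CPM (median 1.77) against 0.215 to 0.513 CPM, again without overlap (2.69, edgeR adjusted p = 0.00287). Mrc1, the mannose receptor, reached 45.7 CPM in lymphoma 19 over a median of 13 and a lowest value of 5.57 CPM, with thymus at 3.03 to 3.79 CPM (2.09, edgeR adjusted p = 0.00557). Cd68, a lysosomal glycoprotein of phagocytes, ran from 20.6 through 32.3 to 80.9 CPM (highest in lymphoma 17) above a thymus range of 10.5 to 13.2 CPM (1.77, edgeR adjusted p = 0.00117).

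Marco, a scavenger receptor that binds bacteria and particles, had 3 counts over the thymus samples and 546 over the lymphomas. Its level was 0.127 to 2.35 CPM (median 1.03) in the lymphomas and at most 0.0731 CPM in thymus, a ratio of depth-scaled counts of 29.8 (95% counting interval 10.1 to 145, counting error only; edgeR adjusted p = 0.00103). Vsig4, a complement receptor of resident macrophages, did not pass the filter: its 121 counts over the lymphomas against 2 over thymus give a ratio of 9.91 (2.68 to 82.7). Cd163, the receptor that takes up haptoglobin-bound hemoglobin, overlapped fully, at 0.0416 to 2.39 CPM (median 0.574) against 0.61 to 1.21 CPM (log2 fold change -0.20, edgeR adjusted p = 0.843). Clec4n, the fungal lectin receptor Dectin-2, lay between 0.88 and 5.93 CPM (median 1.95) against 2.34 to 3.47 CPM, a log2 fold change of -0.66 that did not pass the test (edgeR adjusted p = 0.231).

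The 3 receptors through which phagocytes take up dying cells went different ways. Timd4, a phosphatidylserine receptor of resident macrophages, was at 1.26, 1.78 and 1.35 CPM in the thymus samples, and at 0.0655 CPM in lymphoma 31, a median of 0.31 and 0.999 CPM in lymphoma 35. All 21 lymphomas lay below the lowest thymus sample, and the gene fell by 1.95 on the log2 scale (SE 0.44, edgeR adjusted p = 0.00204). These levels rest on few reads, 117 counts over thymus and 191 over the lymphomas. Mertk, the receptor kinase that binds dying cells through bridging proteins, rose instead, from 1.1 to 2.61 CPM in thymus to 2.28 to 12.5 CPM (median 5.85), with a small overlap at the low end (1.87, edgeR adjusted p = 0.00576). Axl, a kinase of the same family that fibroblasts also make, was at 6.38 to 36.7 CPM (median 13.9) around the thymus values of 14.3 to 16.7 CPM, with a log2 fold change of 0.07 that turned to -0.09 with limma-voom and -0.13 on log2(TPM + 1) (edgeR adjusted p = 0.914).

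Of the Fc receptors and the ITAM adaptors, which carry the activating signal of such receptors, 1 of 5 rose. Over all genes tested, 15.4% rose and 15.4% fell, so 1 of 5 is near that share. Fcgr3, a low-affinity receptor for IgG, ranged from 3.83 CPM in lymphoma 14 through 8.89 to 33 CPM in lymphoma 19, all above the thymus range of 1.87 to 2.88 CPM, a log2 fold change of 2.18 (edgeR adjusted p = 0.00368). Fcgr1, the high-affinity IgG receptor, was at 0.333 to 5.26 CPM (median 1.46) against 0.475 to 0.61 CPM, and its 1.46 did not pass (edgeR adjusted p = 0.0638; DESeq2 0.0268). Trem2, a lipid-sensing receptor, stood at 0.0714 to 1.91 CPM (median 0.204) against 0 to 0.143 CPM, with lymphomas 9, 17, 18 and 19 above 1 CPM and 5 counts over all thymus samples, 4 of them in sample 1. Its log2 fold change of 2.76 did not pass (edgeR adjusted p = 0.0704; DESeq2 0.0308) and was 4.24 without thymus sample 1 and 2.24 without sample 2 (edgeR adjusted p = 0.0675 and 0.248). The adaptor Tyrobp, which Trem2 signals through, was at 4.87 to 34.9 CPM (median 11.3) in the lymphomas and 10.1 to 13.9 CPM in thymus, a log2 fold change of 0.22 that was -0.01 on log2(TPM + 1) (edgeR adjusted p = 0.724). Fcer1g, the adaptor of Fc receptors, was high in lymphomas 18 (39.1 CPM), 20 (30.5 CPM) and 7 (25.7 CPM), while the median of 6.95 CPM lay inside the thymus range of 5.41 to 7.34 CPM (0.84, edgeR adjusted p = 0.309). Natural killer cells and neutrophils also use both adaptors. Of their markers, 7 of 10 and 10 of 11 fell in the lymphomas, while the natural killer gene Gzma rose, and the part of those cells in the adaptor levels was not tested.

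**Figure D2:**
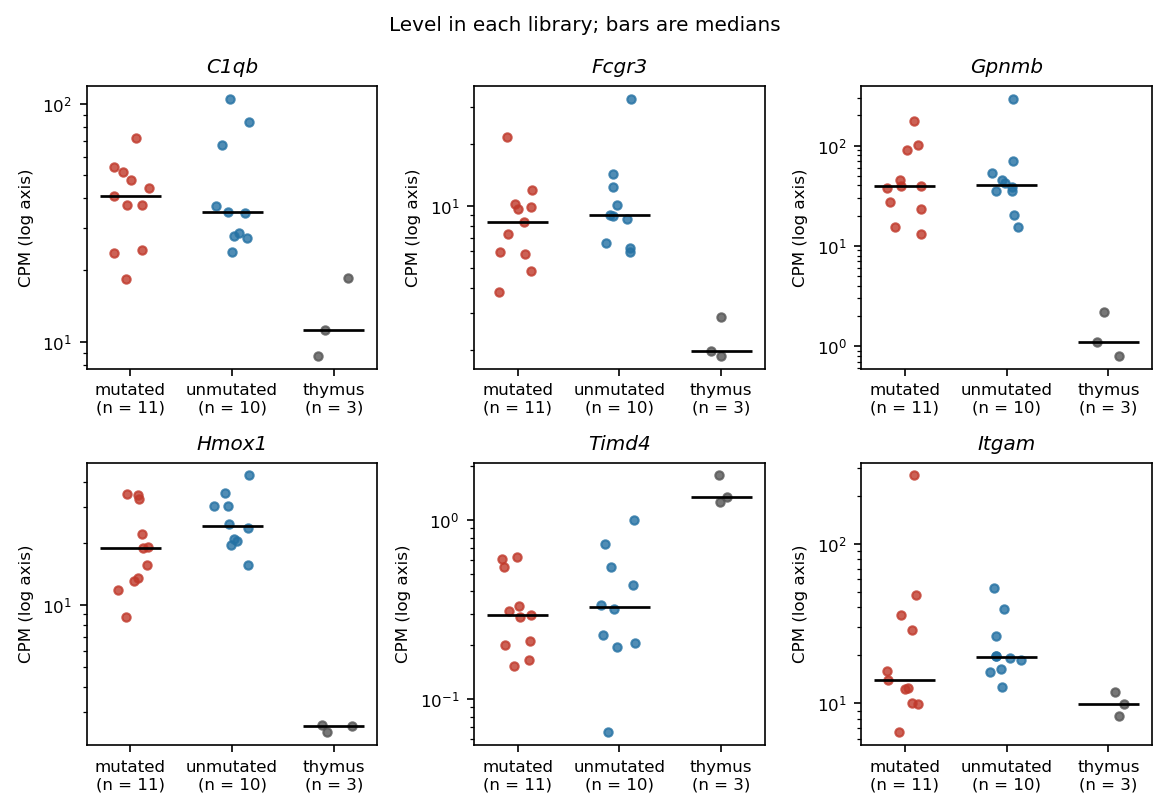
Level in CPM (log axis) of C1qb, Fcgr3, Gpnmb, Hmox1, Timd4 and Itgam in every library, with a point per library of the mutated set, the unmutated set and thymus, and a bar at each median. Gpnmb, Hmox1 and Fcgr3 do not overlap thymus, Timd4 lies wholly below it, and Itgam shows lymphoma 12 alone at 269 CPM.

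Among the lineage genes, Csf1r, the receptor that macrophages need to survive, was at 8.86 CPM in lymphoma 4, a median of 16.2 and 47.4 CPM in lymphoma 19, against 8.57, 7.9 and 6.07 CPM in thymus. No lymphoma lay below the highest thymus sample, and the log2 fold change was 1.29 (edgeR adjusted p = 0.0171). Adgre1, which encodes the macrophage antigen F4/80, ran from 2.67 through 6.78 to 24.2 CPM (lymphoma 18) against 2.76 to 3.43 CPM (1.50, edgeR adjusted p = 0.0432). The calls of both genes were lost without any one thymus sample, at adjusted p values of 0.0507, 0.0694 and 0.0856 for Csf1r and 0.119, 0.16 and 0.107 for Adgre1 without sample 1, 2 and 3. In all, the call of Adgre1 was lost in 9 of 30 alternatives. Among them were those without lymphoma 17 (adjusted p = 0.0522), 21 (0.0508) or 22 (0.0518), and limma-voom (0.101). Ms4a7, a membrane protein of mature macrophages, rose without overlap from 0.621 to 1.15 CPM in thymus to 1.67 to 18.3 CPM (median 4.27; log2 fold change 2.73, edgeR adjusted p = 0.00438). Lyz2, the lysozyme of phagocytes, was at 56.5 to 300 CPM (median 125) against 55.3, 55.9 and 44.9 CPM with every lymphoma above (1.46, edgeR adjusted p = 0.00564). Reads could be split with its near-identical neighbour Lyz1. In the Csf1r model, 15.1% of the exonic bases lie over Hmgxb3 on the opposite strand, and whether counting used strand is left unsaid in the labels.

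Itgam, the CD11b chain of the complement receptor CR3, was at 11.8, 8.37 and 9.9 CPM in thymus and at 6.59 to 269 CPM in the lymphomas, with a median of 18.6 CPM. Lymphoma 12 stood apart at 269 CPM, over 53.1 CPM in lymphoma 18 and 48 CPM in lymphoma 7, and the log2 fold change of 1.74 did not pass (edgeR adjusted p = 0.152; DESeq2 0.0395). The same lymphoma had the lowest levels of C1qa, C1qb, C1qc and Gpnmb of all lymphomas. Itgax, a neighbouring integrin chain of dendritic cells and macrophages that was picked after its values were seen, was at 5.35 CPM there, so the high level was not shared by it. In the annotation, 68.7% of the exonic bases of Itgam are shared with the model Gm49368 on the same strand, which makes its counts uncertain. Cx3cr1, the fractalkine receptor of patrolling monocytes and some resident macrophages, overlapped thymus (0.519 to 4.16 CPM, median 1.9, against 1.34 to 1.94 CPM; 0.42, edgeR adjusted p = 0.529). Aif1, the actin-binding protein Iba1, did not pass the filter: 15 counts were found over all lymphomas, 14 of which had none, and 4 over thymus.

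Iron and heme handling was split. Hmox1, the enzyme that breaks down heme, had the smallest adjusted p of all members. It stood at 2.4, 2.57 and 2.59 CPM in the thymus samples and at 8.74 CPM in lymphoma 2, a median of 20.9 and 42.9 CPM in lymphoma 20, so the lowest lymphoma was well above all thymus samples (log2 fold change 3.21, SE 0.44, edgeR adjusted p = 1.48e-05). Slc11a1, a metal transporter of the phagosome, rose without overlap from 0.694 to 1.58 CPM in thymus to 2.43 to 10 CPM (median 3.93; 2.10, edgeR adjusted p = 0.00139). Spic, a transcription factor of iron-recycling macrophages, was at 0.225 to 2.57 CPM (median 0.765) against 0.913 to 1.62 CPM (-0.69, edgeR adjusted p = 0.291). Slc40a1, the iron exporter ferroportin, was at 2.5 to 11.6 CPM (median 5.02) against 4.17 to 6.67 CPM, with a log2 fold change of 0.04 that was -0.08 with limma-voom and -0.10 on log2(TPM + 1) (edgeR adjusted p = 0.953). The heme enzyme was thus above thymus in every lymphoma. Slc40a1 was above all thymus samples in 7 lymphomas and below all of them in 8, and Spic was above in 1 and below in 14.

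Both lipid and lysosome genes rose. Gpnmb, a lysosomal and surface glycoprotein of lipid-laden macrophages, was at 1.11, 2.21 and 0.804 CPM in thymus. Among the lymphomas it was at 13 CPM in lymphoma 12, at a median of 39.2, and at 102, 176 and 292 CPM in lymphomas 9, 17 and 19, the 3 highest. All 21 lymphomas lay above thymus, with a log2 fold change of 5.44 (SE 1.06, edgeR adjusted p = 0.000541). Apoe, the lipid carrier apolipoprotein E, ran from 93.7 CPM in lymphoma 35 through 217 to 573 CPM in lymphoma 19. It lay above the thymus values of 52.2, 89.3 and 53.9 CPM by a narrow margin at the low end (1.87, edgeR adjusted p = 0.00137). On TPM that margin was gone, with lymphoma 35 at 138 TPM and thymus sample 2 at 143 TPM. Other cell types can make Gpnmb and Apoe as well, and the fibroblast markers given with the other cell types also rose.

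Per transcript length, the most abundant members in the lymphomas were Apoe (median 335 TPM), Lyz2 (313 TPM), C1qb (87 TPM) and Cd68 (62.6 TPM). In thymus the order began with Lyz2 (135 TPM), Apoe (89.4 TPM) and Tyrobp (48.6 TPM). Tyrobp had a median of 48 TPM in the lymphomas, close to its thymus level, while C1qb was at 28.5 TPM and Gpnmb at 0.795 TPM in thymus, the latter against a median of 25.7 TPM in the lymphomas. Ranges between neighbours in this order overlapped: Apoe spanned 138 to 895 TPM and Lyz2 137 to 662 TPM over the lymphomas.

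**Figure D3:**
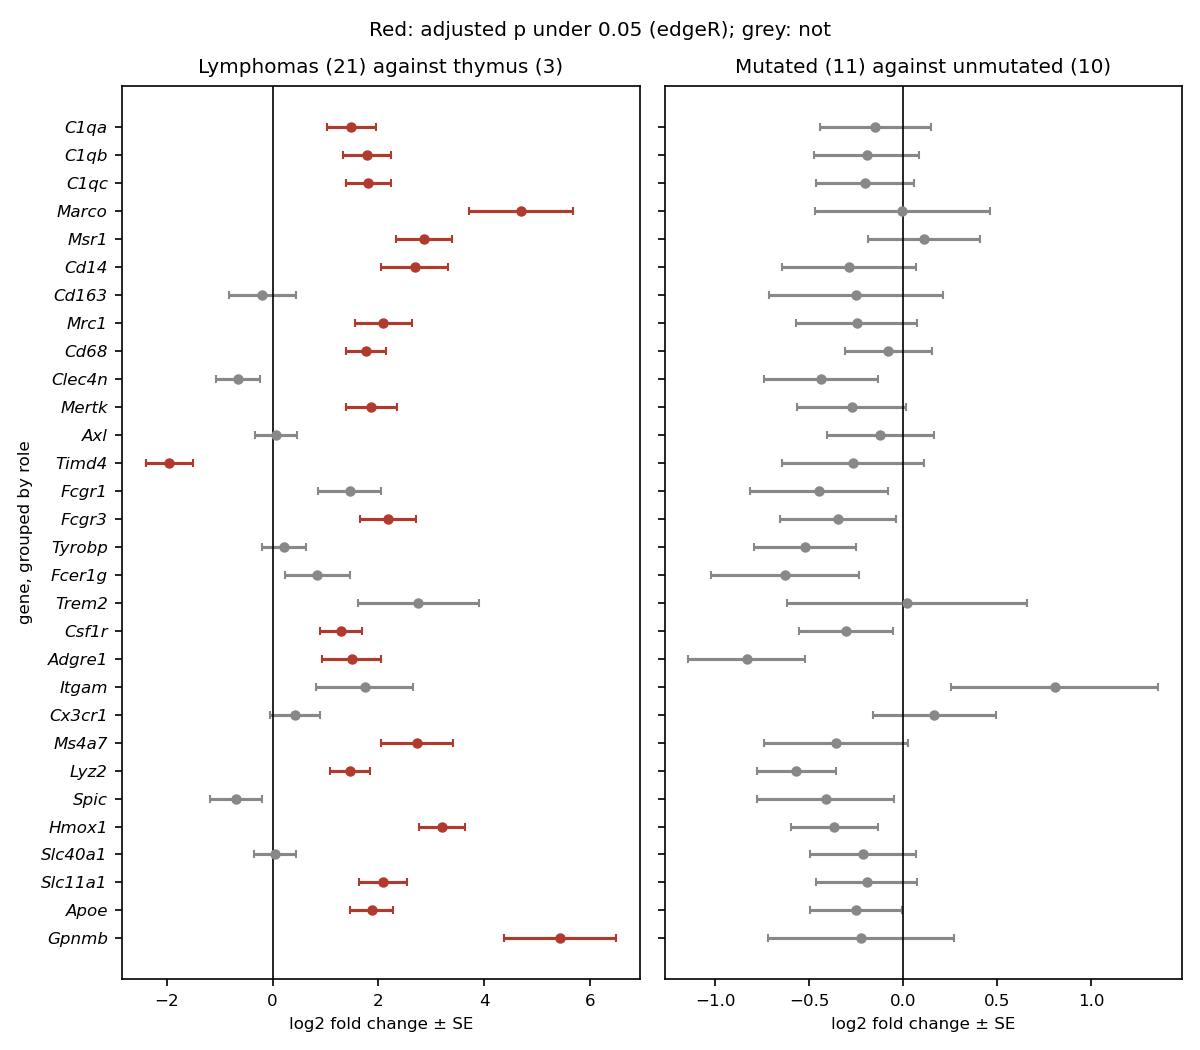
Log2 fold change of the 30 members that passed the filter, with bars of 1 SE and red for an edgeR adjusted p under 0.05: all lymphomas against thymus on the left, the mutated against the unmutated set on the right. Values on the left run from -1.95 for Timd4, the member that fell, to 5.44 for Gpnmb, with 18 members higher, and no member is called on the right.

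The genes can be read by kind of phagocyte. Of the 13 members listed as genes of resident macrophages, 12 were tested, 7 rose, 1 (Timd4) fell and 4 did not pass. Of the 5 members listed for lipid-associated macrophages, Gpnmb, Msr1, Apoe and Cd68 rose and Trem2 did not pass. Among 18 further genes of inflammatory monocytes, 15 were tested, 3 rose, none fell and 12 did not pass, with a median log2 fold change of 0.56, against a share of 15.4% higher over all genes. The 3 were the chemokines Ccl3 (0.319 to 1.43 CPM against at most 0.197 CPM in thymus; 2.46, edgeR adjusted p = 0.00101) and Ccl2 (0.165 to 1.68 CPM against at most 0.158 CPM; 3.0, edgeR adjusted p = 0.00761) and the matrix protein Thbs1 (0.149 to 3.44 CPM against 0.079 to 0.466 CPM; 2.42, edgeR adjusted p = 0.0255). These 3 genes were low, and the cytokines Il1b, Il6 and Tnf, with Ptgs2, Cxcl2 and Clec4e, were under 1 CPM in every lymphoma. The list as a whole was not low: its sum had a median of 268 CPM in the lymphomas (90.5 to 582 CPM) against 220 to 239 CPM in thymus. Its abundant genes, named after their values were seen, did not pass. Plac8 was at 12 to 406 CPM (median 151) against 34.9 to 47.9 CPM (1.87, edgeR adjusted p = 0.0712), with 17 lymphomas above thymus and 2 below. F13a1 was at 1.16 to 285 CPM (median 89) against 139 to 164 CPM (-0.93, edgeR adjusted p = 0.335), and Chil3 at 0.917 to 233 CPM (median 8.29) against 2.65 to 5.56 CPM (2.69, edgeR adjusted p = 0.185). Ly6c2 and Ccr2, the classical monocyte markers, also named after their values were seen, did not pass: Ly6c2 was at 0.295 to 16.4 CPM (median 2.48) against 9.65 to 17.3 CPM (-1.78, edgeR adjusted p = 0.0747), and Ccr2 at 1.3 to 47.2 CPM (median 4.17) against 9.24 to 12.1 CPM (-0.61, edgeR adjusted p = 0.565). T cells and their tumours can also make Ly6c2 and Ccr2.

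Further genes of lipid-associated macrophages went both ways, 3 rising and 3 falling of 8, against 15.4% of all genes tested in each direction. Spp1, which encodes osteopontin, rose from at most 0.513 CPM in thymus to 0.605 to 29.2 CPM (log2 fold change 4.60, edgeR adjusted p = 0.00368), and Lpl, lipoprotein lipase, from at most 3.67 CPM to 7.24 to 58.3 CPM (2.88, edgeR adjusted p = 0.000581). The lysosomal protease Ctsl fell by 2.47, from 907 to 1090 CPM to 44 to 455 CPM (edgeR adjusted p = 0.000289), and the lysosomal lipase Lipa fell by 1.58, without overlap (edgeR adjusted p = 0.00675). Ctsl is also the protease of the thymic cortical epithelium, whose markers fell as well.

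Around the members, the complement genes moved most often in 1 direction: 8 of 11 tested rose and none fell. The share over all genes tested, for these and the next 2 lists, was 15.4% in each direction. C3ar1, the receptor of the C3a fragment, went from at most 0.897 CPM to 3.33 to 35.9 CPM (log2 fold change 3.78, edgeR adjusted p = 0.000609), and C1ra, a protease that acts with C1q, from at most 0.276 CPM to 0.541 to 2.49 CPM (2.41, edgeR adjusted p = 0.00102). C4b, a component of the classical pathway, rose by 4.69 (edgeR adjusted p = 0.000617) from a low level. Of 13 further genes of apoptotic cell uptake, 4 rose and none fell: the scavenger receptors Stab1 (3.51, edgeR adjusted p = 0.000232) and Cd36 (4.13, edgeR adjusted p = 0.00106), the endocytic receptor Lrp1 (2.93, edgeR adjusted p = 0.000226) and the integrin chain Itgav (0.47, edgeR adjusted p = 0.0448). Of 14 genes of the phagocyte lysosome and oxidase, 5 rose and none fell, among them Lgmn, Grn, Ctsb and Ctsz, with log2 fold changes of 2.01, 1.82, 1.16 and 0.88 (edgeR adjusted p = 0.000878, 0.00248, 0.00834 and 0.00871).

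The growth factors and transcription factors of the lineage mostly did not pass, with 1 of 14 higher and 1 lower (15.4% of all genes tested in each direction). Cebpb, a transcription factor of activated macrophages, rose (1.59 to 23.4 CPM against 1.51 to 2.17 CPM; log2 fold change 1.96, edgeR adjusted p = 0.0397). Il34, a ligand of Csf1r made by epithelium and other cells, fell by 3.60 (at most 1.21 CPM against 2.12 to 3.28 CPM; edgeR adjusted p = 0.00479). Spi1, the gene of PU.1, named after its values were seen, was at 2.44 to 10.6 CPM (median 4.43) against 3.66 to 5.73 CPM, a log2 fold change of 0.21 (edgeR adjusted p = 0.73).

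Markers of other cells moved as well, beside 15.4% of all genes tested in each direction. Fibroblast markers rose in 9 of 11 genes, and their summed level was 161 to 1380 CPM in the lymphomas against 17.8 to 22.5 CPM in thymus. On average over the lymphomas that sum was mostly Col1a2, Pdgfrb and Fbln1 (means 187, 183 and 128 CPM), with Fn1 next at 14.9 CPM and Col1a1 at 14 CPM. Of these markers Lum stayed under 1 CPM in every lymphoma. Neutrophil markers fell in 10 of 11 genes (sum 0.753 to 68.7 CPM against 59.9 to 111 CPM, with Mpo, Elane and Ly6g under 1 CPM in every lymphoma). Natural killer markers fell in 7 of 10 and rose in 1, Gzma, so their sum was higher, at 92.2 to 2720 CPM against 135 to 180 CPM. The lymphoma median of that sum was 573 CPM (Gzma alone 570 CPM), and Ncr1 and Klre1 were under 1 CPM in every lymphoma. Of 10 tested dendritic markers 1, Siglech, fell (sum 11 to 1300 CPM against 1030 to 1180 CPM). On average over the lymphomas the dendritic sum was mostly Ccr9, with a mean of 293 CPM beside 14.3 CPM for Itgax, the next. Thymic epithelial markers fell in 7 of 9 tested, and thymocyte markers in 7 of 12. None of 8 B-cell markers was called, and 1 of 4 endothelial and 1 of 6 erythroid markers tested rose. Cldn5 was at 0 in every lymphoma. In lists this short, 1 call is not read as a result about those cells. The part of these cells in the macrophage results was not tested.

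A model of 3 groups gave the comparison of each Ikzf1 set with thymus, in which both sets share the thymus samples, and that of the sets. Against thymus, 17 members rose and 1 fell in the mutated set (26% of all genes called, 13.1% higher) and 19 rose and 1 fell in the unmutated set (35.4% called, 18% higher). On log2(TPM + 1) the calls over all genes were 1313 higher and 2041 lower in the mutated set and 1507 and 3125 in the unmutated set, where the counts gave 1713 and 1699, and 2366 and 2276. Fcgr1 and Adgre1 were called in the unmutated set (log2 fold changes 1.68 and 1.88, edgeR adjusted p = 0.0378 and 0.00856) and not in the mutated set (1.23 and 1.05, edgeR adjusted p = 0.129 and 0.121). The call of Fcgr1 was lost in 8 of 19 alternatives, without lymphoma 19 (edgeR adjusted p = 0.0553) or 20 (0.0517), without thymus sample 1, 2 or 3 (0.0976, 0.105 and 0.12), with limma-voom (0.0872) and on both TPM scales (0.106 and 0.0921). The difference between the sets did not pass the test for either gene, as given with that comparison. C1qb, Gpnmb, Hmox1 and Timd4 had values of 1.68, 5.33, 3.02 and -2.09 in the mutated set beside 1.88, 5.56, 3.39 and -1.82 in the unmutated set, each called in both. The call of C1qb in the mutated set was lost without thymus sample 1 or 3 (edgeR adjusted p = 0.0607 and 0.0697), and that of Timd4 in the unmutated set without thymus sample 2 (0.0511). In the mutated set the count of members called dropped to 11 without thymus sample 3. On CPM, all lymphomas of the set lay above thymus in 15 of 32 members for the mutated set and 19 for the unmutated set. Both counts include Vsig4, which did not pass the filter, and the shares over all genes tested were 9.7 and 12.8%.

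Between the sets themselves, no member passed the test, against 5.38% of all genes called (2.43% higher and 2.95% lower in the mutated set, or 319 and 387 genes; 502 and 154 on log2(TPM + 1)). DESeq2 and limma-voom called none of the 30 either, and 2 members, both lower in the mutated set, had an unadjusted p under 0.05 in edgeR. Lyz2 was at 56.5 to 245 CPM (median 115) in the mutated set and 107 to 300 CPM (median 149) in the unmutated set, overlapping widely, with a log2 difference of -0.57 (mutated minus unmutated; 95% interval -1.0 to -0.13, edgeR adjusted p = 0.106). It was called when lymphoma 17 was left out (-0.74, edgeR adjusted p = 0.0342). Adgre1 was at 2.67 to 12.2 CPM (median 6.49) against 4.16 to 24.2 CPM (median 8.65), a difference of -0.83 (-1.47 to -0.19, edgeR adjusted p = 0.107). Of the 30 members 26 had a negative difference, with a median of -0.25 (0 over all genes), but on log2(TPM + 1) the median was -0.06. The members vary together, and lymphomas 19 and 20, both unmutated, were each among the 3 highest for 20 of the 30. The signs are therefore not separate evidence, and their count was not tested. The intervals leave room for differences of moderate size: that of C1qb ran from -0.77 to 0.38, that of Csf1r from -0.82 to 0.21, and that of Gpnmb from -1.25 to 0.80. Gpnmb turned from -0.23 to 0.49 without lymphoma 19, and Itgam from 0.81 to -0.31 without lymphoma 12.

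Within the 21 lymphomas, the same few libraries led many members. Lymphoma 19 was highest for 13 of the 30 tested members and lymphoma 20 for 5, and each was among the 3 highest for 20 members; lymphoma 17 was among them for 12 and lymphoma 18 for 10. Among the thymus samples, sample 2 was highest for 20 of the 30 members.

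Co-variation was measured by the correlation of log2(CPM + 1) with Csf1r over the 21 lymphomas, with 100000 permutations and Benjamini-Hochberg adjustment over 13120 genes. Of the other 29 tested members, 12 were positively correlated and none negatively by Pearson's r, and 9 by Spearman's rho (1.52% of all genes were called by Pearson's r, 1.44% positive and 0.0762% negative). By rho, 176 of the 13120 genes were called positive and 48 negative. The median r was 0.638 over the members, which were chosen with earlier results of these data known, and 0.006 over all genes. Tyrobp followed Csf1r most closely (r = 0.93, rho = 0.92, permutation p = 1e-05, the smallest they can give, adjusted p = 0.00298), although its level did not differ from thymus beyond the test's threshold. Fcgr3 (r = 0.88, rho = 0.82) and the C1q chains C1qc, C1qb and C1qa (r = 0.86, 0.85 and 0.84, rho = 0.76, 0.73 and 0.74) came next, all at the same permutation p and adjusted p. Ms4a7, Mrc1, Slc11a1, Cd68, Adgre1 and Lyz2 were also called, with r between 0.73 and 0.84. By rho, Ms4a7, Cd68 and Adgre1 did not pass (permutation adjusted p = 0.0875, 0.112 and 0.0716). Fcer1g was called by rho (0.70, permutation adjusted p = 0.0446) and not by r (0.106). Axl passed narrowly (r = 0.68, permutation p = 0.00059, adjusted p = 0.0418; rho = 0.65, adjusted p = 0.0732), and its call was lost in 22 of 28 alternatives, with adjusted p values of 0.00709 to 0.137 when each lymphoma was left out. The call of Lyz2 was lost in 7 of 28, among them without lymphoma 4 (permutation adjusted p = 0.0539), 19 (0.0555) or 20 (0.0601), and that of Adgre1 without lymphoma 19 (0.0776).

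Some members did not follow Csf1r. Of these, Cd163, Spic and Marco averaged only 0.839, 0.83 and 1.1 CPM in the lymphomas, where counting noise can lower r. Hmox1, which was raised in every lymphoma, had r = 0.14 (rho = 0.06, permutation p = 0.546, adjusted p = 0.891), Itgam 0.14, Cd163 0.10, Spic 0.02, Slc40a1 -0.12 and Marco -0.19 (rho = -0.25, permutation p = 0.425, adjusted p = 0.84). Gpnmb and Apoe lay between (r = 0.62 and 0.54, permutation p = 0.00329 and 0.0115, adjusted p = 0.132 and 0.244). Also not called by Pearson's r were Mertk (r = 0.67), Fcgr1 (0.64), Fcer1g (0.638) and Trem2 (0.638). The same held for Cx3cr1 (0.522), Cd14 (0.486), Timd4 (0.426), Msr1 (0.374) and Clec4n (0.277). Over the 435 pairs of tested members, the median r was 0.40, given here as a description of libraries that share a scaling factor and a mixture of cells; 42 pairs were over 0.8 and 66 below 0. C1qb and C1qc had the highest r, 0.982, Mrc1 and Fcgr3 had 0.94, and Cx3cr1 and Marco had the lowest, -0.435. Spic, Slc40a1 and Marco had their highest r with each other (0.51 for Spic with Slc40a1, 0.46 for Marco with Spic).

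**Figure D4:**
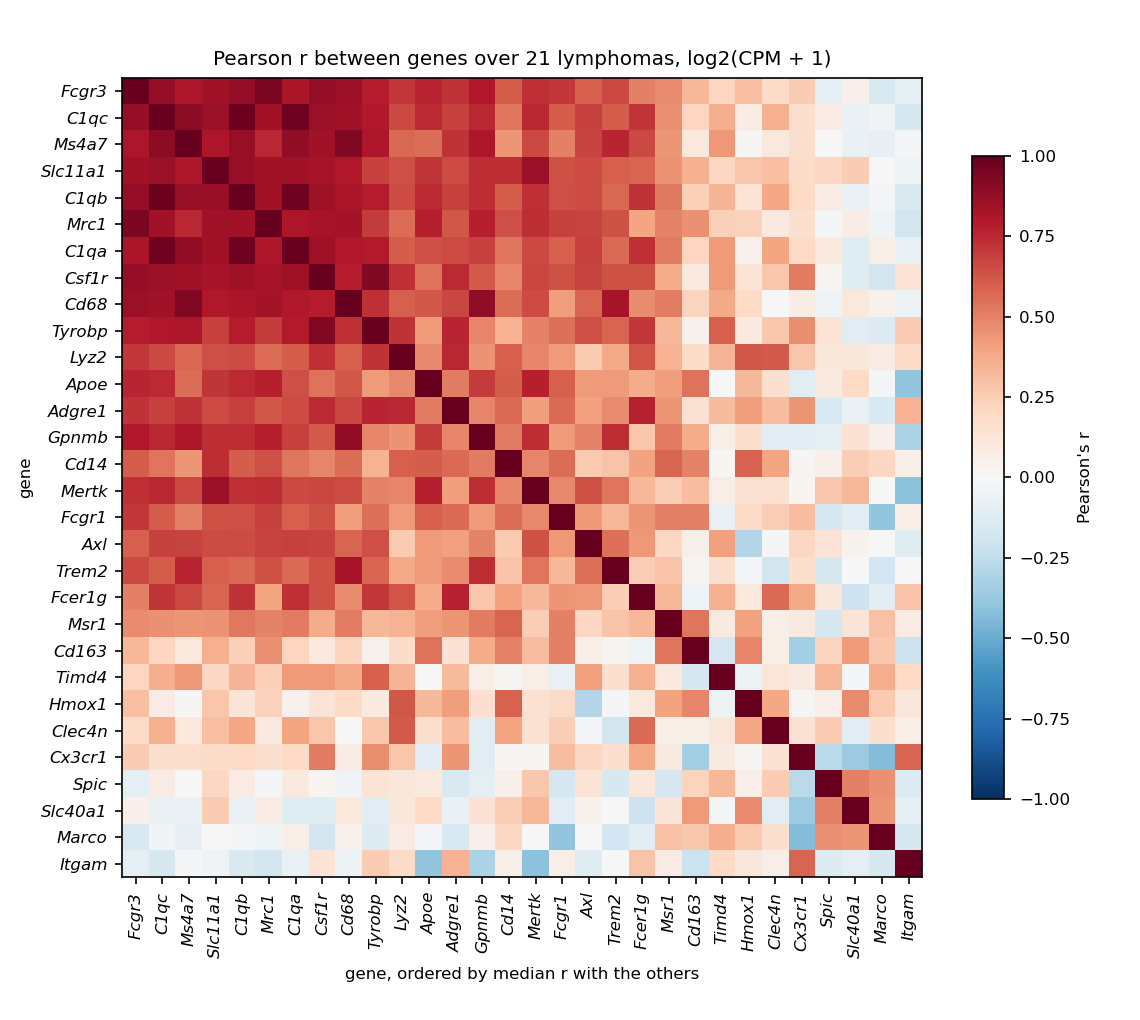
Pearson's r between the 30 tested members over the 21 lymphomas, on log2(CPM + 1), with members ordered by their median r with the others. A block of high r holds Csf1r, Tyrobp, Fcgr3, the C1q chains, Mrc1 and Ms4a7, while Itgam, Marco, Slc40a1, Spic, Cx3cr1, Clec4n, Hmox1, Timd4 and Cd163 lie outside it.

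The calls rested on a few lymphomas, and so did some of the values. Lymphomas 19 and 20 lay farthest from the median of Csf1r. Without both, 7 members and 98 genes were called in place of 12 and 199, and r was 0.89 for Tyrobp, 0.79 for Fcgr3, 0.74 for C1qb and 0.18 for Apoe. Also without both, r went from 0.64 to 0.243 for Fcgr1 and from 0.486 to 0.226 for Cd14, while that of Trem2 went up, from 0.638 to 0.719. Without lymphoma 19 alone, 9 members and 111 genes were called. Within the mutated set no gene was called (12 members and 940 genes at an unadjusted permutation p under 0.05), nor within the unmutated set (17 and 980), where r was 0.73 and 0.94 for C1qb and 0.96 and 0.91 for Tyrobp. Apoe had r = 0.15 within the mutated set and 0.76 within the unmutated set, a difference that was not tested.

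Outside the members, the 8 genes most like Csf1r, among genes averaging 1 CPM or more there, were Sirpa (r = 0.93, rho = 0.88), Cyp4v3 (0.91, 0.84), Pirb (0.91, 0.82), Itgb5 (0.90, 0.80), Retnla (0.90, 0.89), Cd300lb (0.89, 0.85), Mpeg1 (0.89, 0.84) and Cd63 (0.88, 0.85), all with a permutation p of 1e-05 and an adjusted p of 0.00298. Sirpa is the myeloid receptor for CD47, Pirb and Cd300lb are immunoglobulin-like receptors of myeloid cells, Retnla is a secreted protein of alternatively activated macrophages, and Mpeg1 is the pore-forming protein perforin-2. Of the lineage's growth factors and transcription factors, 5 of 14 were called, with Csf2rb, Cebpa, Spi1 and Tfec at r = 0.87, 0.86, 0.85 and 0.79 (adjusted p = 0.00298, 0.00298, 0.00298 and 0.0101), and these were picked after their values were seen. The phagocyte lysosome and oxidase list had 7 of 14 called, with Ctss at 0.88, where 1.52% of all genes were called. Of 15 inflammatory monocyte genes, 1 was called (Chil3, r = 0.78, adjusted p = 0.00525), and the list's median r was 0.22. Other cell types contributed 1 of 10 dendritic markers (Itgax, r = 0.85, which macrophages also make) and 1 of 11 fibroblast markers (Postn, r = 0.70), and none of the neutrophil, B-cell, natural killer, endothelial, thymic epithelial, erythroid or thymocyte markers tested was called by Pearson's r.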

How the data were processed

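Per the labels' protocols, poly(A) RNA of 24 libraries was sequenced. Per the submitters' processing notes, reads were handled with HISAT2 2.0.1, cutadapt 1.9.1, SAMtools, HTSeq 0.6.1 and edgeR on build GRCm38.p6, with settings and strand not given in the sources used here. Raw counts per gene symbol were used as deposited, and the authors' TPM values were used for levels between genes and as an alternative scale. The tests ran under R 4.3.3 on the counts, by edgeR 4.0.16 (TMM, filterByExpr, glmQLFit, glmQLFTest, Benjamini-Hochberg over 13121 genes, threshold 0.05), in models of 2 groups (lymphomas, thymus) and 3 groups (both Ikzf1 sets, thymus); SE is the fold change over the root of F. Correlations used log2(CPM + 1) in Python 3.11.15. Alternatives were DESeq2 1.42.0 (also its size factors), limma-voom (limma 3.58.1), TPM with a pseudocount of 1 or 0.1, no filter, and each library left out; leaving each lymphoma out of the correlation was chosen after seeing the data. The code was tested on simulated data. A deposited table on Grb10 level was left out because its headers do not mark which lymphomas are high or low.

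The members and lists were chosen with earlier results of these data known. All 32 members were named; of each other list, up to 4 genes with the smallest p in lymphomas against thymus among those past the threshold (or smallest p where none passed), and the 8 genes most like Csf1r; 1 gene that this rule names is not reported here. Marker lists of other cells are reported by counts. Counting intervals are exact and cover counting error only.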

Additional observations from a re-analysis of the deposited data

Results flagged for a closer look

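In 6 of the 30 tested members, the highest library of the unmutated set (10 lymphomas) stood apart from the next by a gap above Dixon's 95% critical value. Chance flags about 5% of groups of normally distributed values, but the rule was run on unlogged CPM, so that rate may not hold. The members also vary together, so the flags are not independent. The mutated set of 11 was not examined by this rule. Itgam was at 269 CPM there in lymphoma 12, over 48 CPM in lymphoma 7. Lymphoma 19 was set apart for Gpnmb (292 CPM, next 70.3 CPM), Mrc1 (45.7 CPM, next 24.2 CPM) and Fcgr3 (33 CPM, next 14.2 CPM). Lymphoma 20 was set apart for Cd14 (5.81 CPM, next 3.28 CPM) and Clec4n (5.93 CPM, next 2.98 CPM), and lymphoma 34 for Spic (2.57 CPM, next 1.48 CPM).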

How the results depend on the processing

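The members gave 3749 values under the alternatives, of which 3529 kept their direction and their side of the threshold, 103 lost a call, 20 gained one and 97 changed sign. No member that was called changed sign. No paired analysis was possible because the groups share fewer than 2 replicate numbers. The cause of these changes was not tested.

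Calls over all genes between the Ikzf1 sets were 1269 with DESeq2 and 388 with only the lymphomas in the fit, against 706. With libraries left out in turn they ranged from 301 (without lymphoma 34) to 1221 (without lymphoma 31), and calls among members from 0 to 1. Against thymus, calls over all genes ranged from 1929 to 4435 for all lymphomas, 1441 to 3904 for the mutated set (members 11 to 18) and 2856 to 4895 for the unmutated set. For the correlation with Csf1r, 98 genes and 7 members were called without lymphomas 19 and 20, 0 and 0 within either Ikzf1 set, and 111 to 223 genes and 9 to 13 members with each lymphoma left out. Scaling moved the median log2 fold change of all genes from 0.07 to -0.10 at most, on log2(TPM + 0.1) for all lymphomas against thymus.

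With limma-voom, the log2 values that changed sign were Axl -0.09 and Slc40a1 -0.08 in all lymphomas against thymus, Axl -0.13 in the mutated set against thymus, Axl -0.04 in the unmutated set against thymus and Trem2 -0.33 and Itgam -0.23 in the mutated against the unmutated set. On log2(TPM + 1), the log2 values that changed sign were Axl -0.13, Tyrobp -0.01 and Slc40a1 -0.1 in all lymphomas against thymus, Axl -0.14 in the mutated set against thymus, Axl -0.12 and Slc40a1 -0.08 in the unmutated set against thymus and C1qa 0.09, C1qb 0, Marco 0.07, Cd68 0.02 and Trem2 -0.06 in the mutated against the unmutated set. On log2(TPM + 0.1), the log2 values that changed sign were Axl -0.16, Tyrobp -0.01 and Slc40a1 -0.14 in all lymphomas against thymus, Axl -0.17 in the mutated set against thymus, Axl -0.15 and Slc40a1 -0.11 in the unmutated set against thymus and C1qa 0.1, C1qb 0, Marco 0.16, Cd68 0.02, Trem2 -0.23 and Slc11a1 0 in the mutated against the unmutated set. With no filter, the log2 value that changed sign was that of Marco, 0.02, in the mutated against the unmutated set. Over the authors' filtered genes, it was again that of Marco, 0, in the mutated against the unmutated set. Correlations with Csf1r that changed sign were Itgam -0.142 with C1qb in place of Csf1r, Spic -0.114 on log2(TPM + 1), Spic 0 on log2(CPM + 0.1), Cd163 -0.357 and Spic -0.028 without lymphomas 19 and 20, Cd163 -0.383 and Spic -0.374 within the mutated set and Hmox1 -0.033 within the unmutated set.

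With each library left out in turn, the correlation with Csf1r gave Cd163 from -0.143 to 0.213 and Spic from -0.088 to 0.123. With each library left out in turn, all lymphomas against thymus gave Axl from -0.02 to 0.15, Cd163 from -0.41 to 0.03 and Slc40a1 from -0.11 to 0.19. With each library left out in turn, the mutated against the unmutated set gave Axl from -0.34 to 0.01, C1qa from -0.25 to 0.04, C1qb from -0.31 to 0.02, C1qc from -0.33 to 0, Cd68 from -0.25 to 0.07, Gpnmb from -0.57 to 0.49, Itgam from -0.31 to 1.01, Marco from -0.18 to 0.14, Mrc1 from -0.4 to 0.09 and Trem2 from -0.53 to 0.27. With each library left out in turn, the mutated set against thymus gave Axl from -0.2 to 0.09, Slc40a1 from -0.22 to 0.08 and Tyrobp from -0.15 to 0.12. With each library left out in turn, the unmutated set against thymus gave Cd163 from -0.29 to 0.15 and Slc40a1 from 0 to 0.3.

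Depth limits Vsig4, Trem2 and Marco, which have few counts in thymus, Timd4, which has few in the lymphomas, and Aif1, which has few in both. It also limits the correlations of Cd163, Spic and Marco, which are low in the lymphomas. Every comparison with thymus rests on only 3 thymus samples. In the edgeR fits the spread of each gene was estimated over the lymphoma and thymus libraries together.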
